A study of Arabidopsis thaliana with 2 samples.

Results

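Glutathione reductases and chloroplast ascorbate peroxidases were compared between wild-type Arabidopsis thaliana and the double knockout KO-HsfA1d/A1e after high light. The 4 genes are GR1 (AT3G24170), the plastid glutathione reductase GR (AT3G54660), the thylakoid ascorbate peroxidase TAPX (AT1G77490) and the stromal ascorbate peroxidase SAPX (AT4G08390). They were chosen by locus, as the probe sets whose platform annotation names 1 of these genes alone, matched through its Entrez identifier. Each gene has 1 such probe set, so the 4 members stand among 9023 singly named genes. Values are deposited for 16541 probe sets per array, and 0 probe sets name a member together with another gene.

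Both groups are rosette leaves of ecotype Columbia, harvested from seedlings 2 weeks old. They grew on MS medium in days of 16 h (25°C, light of 100 µE m-2 s-1) and nights of 8 h (22°C), and both genotypes then spent 30 min at 400 µE m-2 s-1 and 25°C, per the labels' protocols. The wild type carries no stated mutation, and KO-HsfA1d/A1e lacks both HsfA1d and HsfA1e, class A1 heat shock factors that activate genes of the heat shock response. The sources used here do not give the alleles or the number of plants behind a sample. Each genotype has 1 array, and plants kept at growth light are not analysed here. The values therefore set one genotype against the other under high light and do not show a response to light. Without replicates no SD or p-value can be had, and every difference is one between these 2 arrays. In leaf RNA, fewer cells of a type and less RNA per cell cannot be told apart.

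The 4 enzymes belong to the ascorbate-glutathione cycle, in which hydrogen peroxide is reduced at the expense of NADPH. Ascorbate peroxidases reduce hydrogen peroxide to water with ascorbate as electron donor. The oxidised ascorbate is returned to ascorbate by monodehydroascorbate reductase, or by dehydroascorbate reductase with glutathione, and glutathione reductase turns oxidised glutathione back into its reduced form with NADPH. In illuminated chloroplasts the cycle removes the hydrogen peroxide that forms when photosystem I passes electrons to oxygen, and TAPX and SAPX act at the thylakoid membrane and in the stroma. In Arabidopsis, GR1 acts in the cytosol and peroxisomes, while the product of AT3G54660 is sent to plastids and mitochondria.

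All 4 transcripts had a higher intensity on the mutant array, by 12.6% for SAPX to 22.4% for GR1, and none reached 2-fold. The difference of log2(intensity + 16), mutant minus wild type, had a median of 0.21 over the 4 genes and ran from 0.17 to 0.29. Over the 8271 probe sets past the expression filter, which keeps those whose mean log2 value is at or above the median of all probe sets, the median difference was 0.03 and 56.3% were higher in the mutant. At 2-fold, 0 of the 4 members differed, beside 1.5% of the probe sets past the filter, made up of the 1.38% that were lower and the 0.121% that were higher in the mutant. At 1.5-fold the count was 0 of 4 again, beside 4.9% of them. All 4 members passed the filter, and all 4 lay among the brightest 20% of the probe sets.

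The glutathione reductases are the enzymes that keep glutathione reduced. The cytosolic GR1 had an intensity of 3851 in wild-type leaves and 4712 in mutant leaves, a ratio of 1.22 and a log2 difference of 0.29. Of the 4 genes it had the largest difference, yet 12.8% of the probe sets past the filter were at least as high in the mutant. The plastid and mitochondrial reductase GR had 2409 in wild-type and 2772 in mutant leaves, a ratio of 1.15 and a log2 difference of 0.20. A difference at least as high was found for 22.3% of the probe sets past the filter. Both reductases were thus on the mutant's side by a small margin, and the difference of GR1 exceeded that of GR by 0.09 log2 units.

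The chloroplast ascorbate peroxidases reduce hydrogen peroxide next to its source. TAPX, which is anchored in the thylakoid membrane, had 1269 in wild-type and 1472 in mutant leaves, a ratio of 1.16 and a log2 difference of 0.21. For TAPX, 20.7% of the probe sets past the filter were at least as high in the mutant. SAPX, its soluble relative that is found in the stroma and also in mitochondria, had 1103 in wild-type and 1241 in mutant leaves, a ratio of 1.13 and a log2 difference of 0.17. That was the smallest difference among the members, reached or passed by 27.0% of the probe sets past the filter. The thylakoid and stromal forms differed from each other by 0.04 log2 units in their genotype difference.

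**Figure D1:**
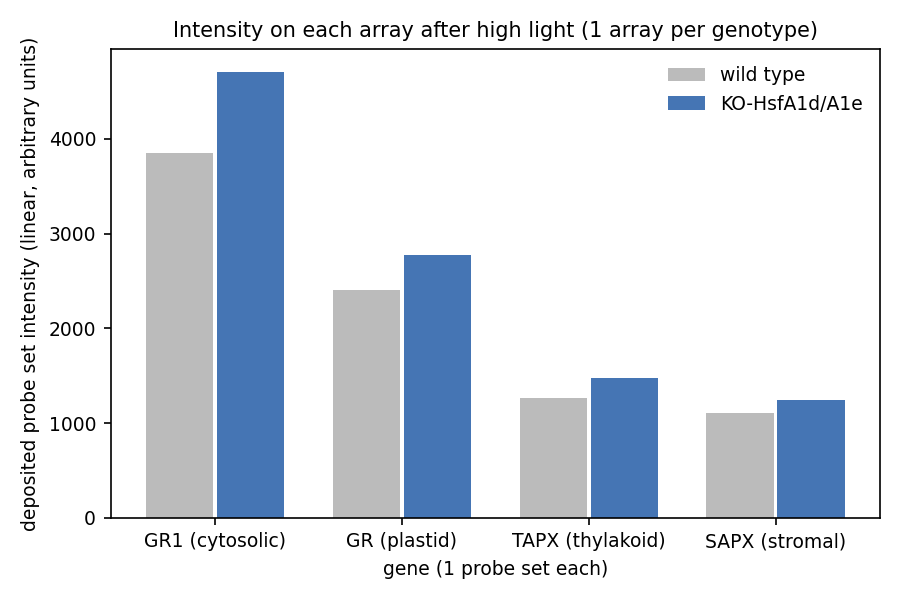
Deposited probe set intensity (linear scale, y axis) of the 4 genes (x axis) on the wild-type array (grey) and the KO-HsfA1d/A1e array (blue), with 1 array per genotype and therefore no error bars. The mutant bar is the higher one for each gene, by 12.6% for SAPX up to 22.4% for GR1. Bars of different genes come from different probe sets and are not to be set against each other.

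The scale of the error could be judged only from genes measured by several probe sets on the same arrays. There were 13 such genes past the filter. Probe sets of one gene scattered around the gene's mean difference with an SD of 0.20 on the log2 scale, and the widest gap was 0.56. The members' differences were between 0.82 and 1.42 times that SD. All were smaller than the widest gap, but GR1 (0.29) was above the median gap of 0.28. A gap is the range between probe sets of a gene, so it is not the same measure as a difference. Variation between plants, and errors in RNA or labelling common to an array, are not in this scatter, so the full error of a genotype difference is unknown. Even against this partial error, the 4 differences were of the size of the scatter.

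The order of the differences was GR1, TAPX, GR and SAPX, and no neighbours in that order were further apart than the scatter. From the first to the last the order spanned 0.12 log2 units, less than the SD of 0.20 between probe sets of a gene. The mean difference was 0.25 for the 2 reductases and 0.19 for the 2 peroxidases, a gap of 0.06. A likeness of pattern to other genes was not computed, because a correlation over 2 arrays can only be 1 or -1.

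Bright probe sets were slightly higher on the mutant array, much like all probe sets past the filter (median 0.03, 56.3% higher). After loess the share higher past the filter was 49.6%. Among the 3308 brightest probe sets, the top 20% to which the members belong, the median difference was 0.04 and 57.3% were higher in the mutant. The central 95% of the differences among these ran from -0.72 to 0.49, and the members lie inside it. A difference at least as high as that of SAPX was found for 25.5% of them, and one at least as high as that of GR1 for 11.3%.

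**Figure D2:**
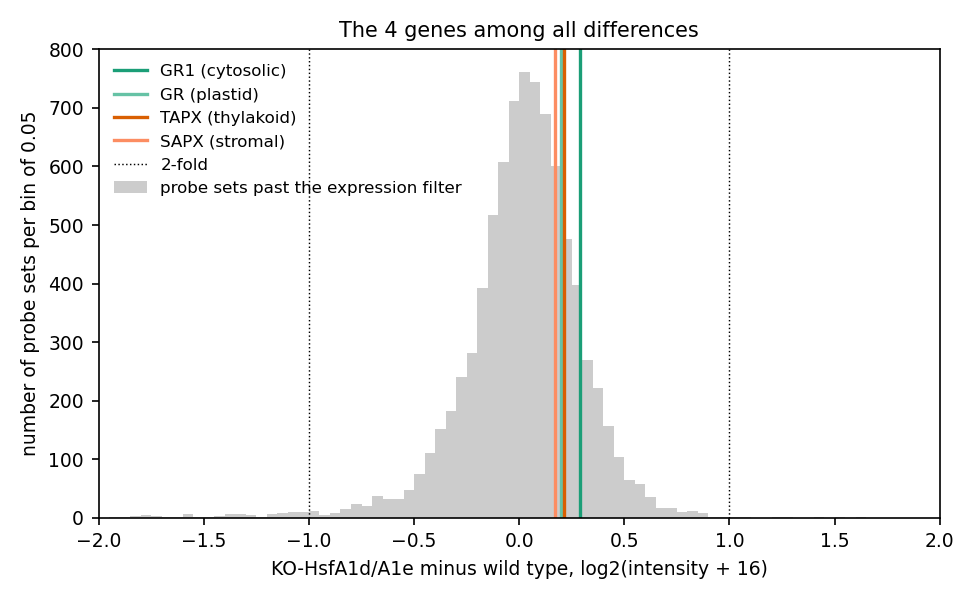
Histogram of the log2 difference, mutant minus wild type (x axis), over the probe sets past the expression filter (y axis, number per bin of 0.05), with the 4 genes as coloured lines and 2-fold as dotted lines. The members lie between 0.17 and 0.29, on the right shoulder of the distribution and well inside 2-fold. The axis ends at -2 and 2, which leaves 30 probe sets out on the left and 1 on the right.

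Small heat shock protein transcripts stood on the other side. The genes AT1G53540, AT2G29500, AT5G37670 and AT5G51440, which encode chaperones that bind unfolded proteins, were picked because they were known to be lower on this mutant array, and their values serve as a scale only. Their differences ran from -3.91 to -2.57. AT1G53540 had 4984 in wild-type leaves and 317.5 in mutant leaves. AT5G37670, with the smallest difference of the 4, still had 5818 against 963.3. HsfA1d and HsfA1e themselves were not analysed here, so the genotype labels could not be checked on the deleted genes.

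Other enzymes of the antioxidant network were looked up in 6 lists of 56 genes, of which 11 were measured. Each of the 11 passed the expression filter. None of them reached 2-fold, beside 1.5% of all probe sets past the filter. Measured here means that the annotation gives the gene a probe set of its own. The deposited values also hold 7062 probe sets with no gene name here and 340 that name several genes. Genes not counted may lie under those or have no deposited value. No probe set named another ascorbate peroxidase, a glutathione peroxidase-like gene, a superoxide dismutase or a catalase alone. The chloroplast peroxidases were therefore not compared with their cytosolic relatives.

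On the recycling side, 1 of 8 monodehydroascorbate and dehydroascorbate reductases was measured. ATMDAR2 (AT5G03630), which returns oxidised ascorbate to its reduced form, had 1116 in wild-type and 1268 in mutant leaves, a log2 difference of 0.18. That value lies within the range of the 4 members.

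Of the 9 genes of ascorbate and glutathione synthesis, 4 were measured, all of them in the ascorbate branch, with a median difference of 0.13. GLDH, the mitochondrial enzyme of the last step to ascorbate, had 334.6 in wild-type and 447.4 in mutant leaves, a difference of 0.40. GME, a GDP-mannose epimerase of the same route, had 8912 against 10249 (0.20). The galactose dehydrogenase AT4G33670 had 1978 against 2066 (0.06), and the phosphatase VTC4 had 1029 against 1036 (0.01). All 4 had the higher value in the mutant, beside 56.3% of all probe sets past the filter. However, VTC4 turned to -0.01 after median centring and to -0.03 after loess. GLDH was the gene of this group with a difference larger than that of GR1.

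Peroxiredoxins reduce peroxides without ascorbate. Of 13 genes for peroxiredoxins and their partners 5 were measured, with a median difference of -0.08. All 5 had the lower value in the mutant, except that NTRC and AT3G52960, nearly equal on both arrays, turned to 0.01 after quantile normalization. Of all probe sets past the filter, 43.7% were lower in the mutant. SRX, the sulfiredoxin that repairs over-oxidised peroxiredoxins, had 1896 in wild-type and 1475 in mutant leaves, a difference of -0.36. AT3G11630, a chloroplast peroxiredoxin of the 2-Cys type, had 10910 against 9661 (-0.18). The mitochondrial PRXIIF had 1732 against 1633 (-0.08). NTRC, a chloroplast thioredoxin reductase that feeds electrons to peroxiredoxins, had 2721 on both arrays. The chloroplast peroxiredoxin AT3G52960 had 2952 against 2943 and was added to the named genes with its values known. The copper chaperone of superoxide dismutase, CCS, was the measured gene of its list of 12 and had 565.3 against 484.5 (-0.22). The difference between these genes and the 4 members was not tested, since 1 array per genotype allows no test.

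**Figure D3:**
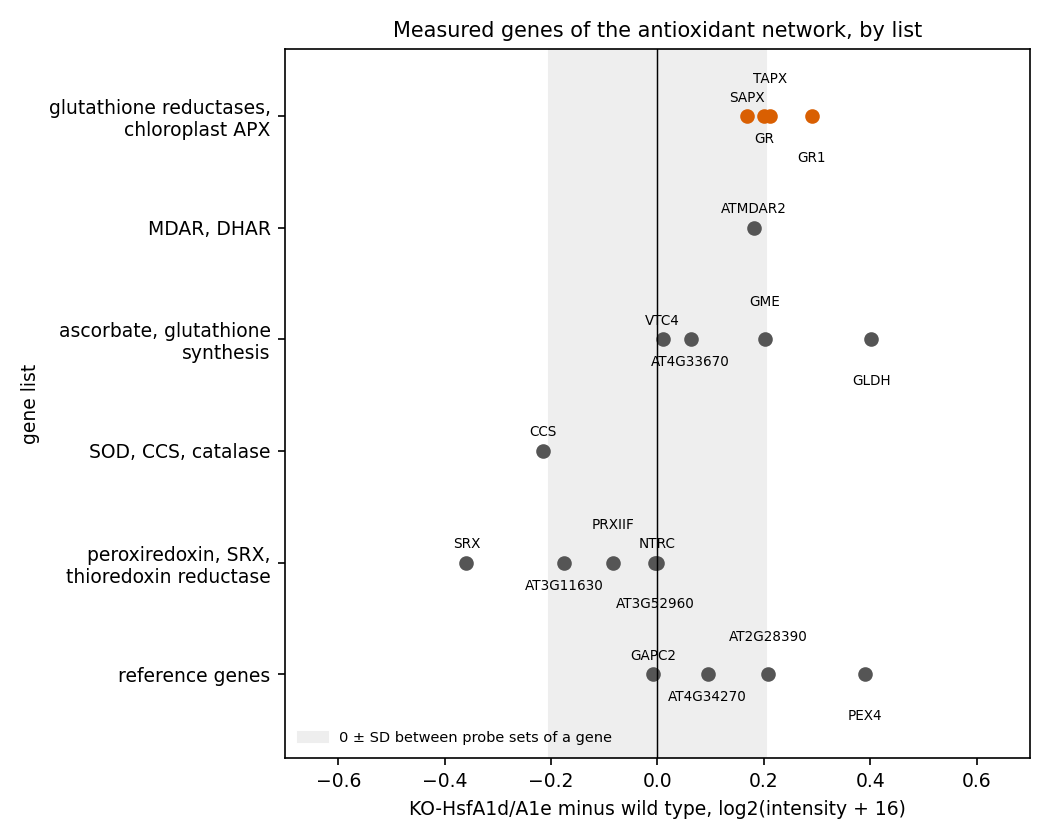
Log2 difference, mutant minus wild type (x axis), of the measured genes of the antioxidant lists and the reference genes (y axis, by list), with the 4 members in orange and the other genes in grey. The grey band marks 0 ± the SD of 0.20 between probe sets of a gene. The members lie at 0.17 to 0.29, near the upper edge of the band, as does the reference gene AT2G28390, and SRX (-0.36), GLDH (0.40) and PEX4 (0.39) lie furthest out among the genes plotted.

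Genes used as references for leaf RNA spanned a range of differences that includes the members. Of 9 such genes 4 were measured, with a median difference of 0.15, beside 0.03 over all probe sets past the filter. In the mutant, 3 of the 4 were higher, beside 56.3% of those probe sets. PEX4, a ubiquitin-conjugating enzyme often used as a reference, had 1350 in wild-type and 1774 in mutant leaves (0.39), a larger difference than that of any member. AT2G28390 had 601.4 against 697.0 (0.21), AT4G34270 had 521.6 against 557.9 (0.09), and GAPC2, a cytosolic glyceraldehyde phosphate dehydrogenase, had 16008 against 15916 (-0.01).

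STZ, the zinc finger regulator Zat10 that answers to high light and reactive oxygen, was the measured gene of the 6 high-light markers, with 1414 in wild-type and 917.1 in mutant leaves (-0.62). STZ lay on the opposite side from the 4 antioxidant genes, as did 43.7% of the probe sets past the filter. A difference at least as low was found for 3.1% of them. A single marker on 1 probe set does not describe the light response.

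Markers were used to check the labelled tissue. Of 4 rosette leaf markers, 2 were measured. RCA, which encodes Rubisco activase, had 22929 in wild-type and 25125 in mutant leaves, close to the brightest values of either array (25226 and 28565), and LHCB4.1, a light-harvesting protein, had 14279 against 13945. Of the 6 markers of other tissues or cells, 3 were measured. The root marker PYK10 had 2555 against 3758, a difference of 0.55 in the same direction as the members. Only 2.0% of the probe sets past the filter were at least as high in the mutant. The guard cell marker FMA (-0.10) and the cell division marker AUR1 (0.08) were under the filter. No probe set named the phloem, seed or floral marker alone. The part of root tissue in the members' differences was not tested.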

How the data were processed

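RNA from 1 wild-type and 1 KO-HsfA1d/A1e sample was hybridised to Affymetrix arrays, as biotinylated cRNA from 100 ng of total RNA, per the labels' protocols. The authors deposited linear intensities, 1 per probe set and array. The sources used here do not say how probes were summarized, corrected, scaled or filtered, and there are no detection calls. Precision is limited by the number of arrays. Median intensity was 334.1 (wild type) and 331.9 (mutant).

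Genes were named from GEO's platform annotation, brought up to date by Entrez identifier with TAIR10.1 names (9095 of 9139 singly named probe sets matched). No coordinates are printed, as no build is stated. Differences are of log2(intensity + 16), mutant minus wild type. A difference understates the deposited ratio, slightly for bright probe sets and more for dim ones. Values were used as deposited, since the arrays' medians past the filter (mean log2 of at least 8.44) differed by 0.02, under the limit of 0.1. A gene with several probe sets was represented by the one with the highest mean. No test was possible. The named genes are all members, then up to 4 measured genes of each list in order of locus. The members and lists were chosen with earlier results of these data known. The calculation was tested on simulated data. Python 3.11.15, numpy 2.4.6, pandas 2.3.3 and statsmodels 0.14.6 were used. Alternatives were median centring, quantile normalization, loess (span 0.3), pseudocounts of 1 and 64, a 1.5-fold threshold, no filter or one at percentile 75, leaving out probe sets ending in _s_at or _x_at, and averaging a gene's probe sets.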

Additional observations from a re-analysis of the deposited data

How the results depend on the processing

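No paired analysis was possible because a single replicate was hybridised per genotype, and for that reason no replicate could be left out. The differences of the 4 genes were computed under 5 other scalings and pseudocounts, and all 20 values were higher in the mutant and within the SD between probe sets of the value reported. GR1 ranged from 0.25 to 0.29, TAPX from 0.18 to 0.22, GR from 0.16 to 0.20 and SAPX from 0.13 to 0.17, and the median of the 4 from 0.17 to 0.21. The count at 2-fold stayed at 0 of 4, also at 1.5-fold. No member's probe set ends in _s_at or _x_at and each gene has 1 probe set, so leaving such probe sets out and averaging could not alter a value. The share of probe sets higher in the mutant was 49.6% after loess, against 56.3%, and the share at 2-fold was 3.05% without the filter, against 1.5%. For the other lists, recomputed under settings chosen after seeing the data, the median of RCA and LHCB4.1 turned from 0.05 to -0.0284 after quantile normalization and to -0.00202 after loess. Background signal is unknown, which limits dim probe sets most.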

Other observations

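Families that work beside the glutathione reductases were looked up by keyword in gene names after the data had been seen, so their values are descriptions. These values were not recomputed under the alternative scalings and pseudocounts, so the sign of a gene nearly equal on both arrays is not firm. Glutathione S-transferases, which join glutathione to other molecules, had 49 genes by keyword, of which 10 were measured. Of the 6 past the expression filter, 5 were higher in the mutant and 0 reached 2-fold, with a median log2 difference of 0.18, beside 56.3% higher and 1.5% at 2-fold among all probe sets past the filter. GSTU18 had 1720 in wild-type and 2296 in mutant leaves (0.41), GSTU16 had 1415 against 1824 (0.36) and GSTU28 had 866.3 against 1099 (0.34). The brighter GSTU20 (0.03) and GSTL3 (0.03) were nearly equal on both arrays, and GSTU27 had 616.8 against 577.5 (-0.09). Under the filter, GSTU23 had 124.0 against 89.7 (-0.41), while GSTF4 (0.12) and GSTU26 (0.14) were higher in the mutant. GSTU25 was also under the filter and had 10.3 against 90.3. Its wild-type value is below 31.7, the 5% quantile of the wild-type array, and without detection calls such a dim value gives no firm size.

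Thioredoxins, small proteins that reduce disulfides, had 28 genes by keyword, of which 7 were measured. Of the 5 past the filter, 4 were higher in the mutant, beside the same 56.3%, and the median difference of the 5 was 0.06. TRXF2, a chloroplast thioredoxin that activates enzymes of carbon fixation, had 1240 in wild-type and 1870 in mutant leaves (0.59), and THX, another chloroplast form, had 4160 against 4978 (0.26). ATHM2 (0.03) and ty2 (0.06) were also counted as higher but were nearly equal on both arrays. TO1 lay on the other side, with 466.7 against 413.0 (-0.17). Of 9 glutaredoxins, which take electrons from glutathione, 3 were measured. GRXC2 had 6169 against 5359 (-0.20) and GRXC1 had 727.6 against 716.0 (-0.02). The third measured gene, GRX480, was under the filter and had 172.7 against 42.7, a deposited ratio of 4.05 in favour of the wild type. Its difference of log2(intensity + 16) was -1.68, which understates that ratio, since the added 16 weighs more on dim values. The mutant value lies not far above 31.9, the 5% quantile of the mutant array, so its size is not firm. Among these families and the 4 members, TRXF2 had the largest difference past the filter, and it stayed under 2-fold.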
